A study of Sus scrofa with 24 samples.

Results

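The external jugular vein was the control tissue in a pig model of the arteriovenous haemodialysis graft, a synthetic conduit placed between an artery and a vein. The 8 samples described here were chosen by their labels: the jugular controls taken 14 days (replicates 1 to 4) and 5 days (replicates 1 to 4) after graft placement, out of 24 samples in all. The other 16 came from the venous anastomosis, where graft and vein are joined, and from the vein downstream of it. Both control groups therefore came from the grafted model at a known time, and no sample from before grafting is part of the series. The labels give no strain, age or sex, and do not say whether samples of the same number came from the same animal. The series describes 4 independent experiments with different biological replicates. RNA was total RNA of the piece of vein, so fewer cells of a type and less RNA per cell cannot be told apart in any value below.

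Every jugular control was labelled with Cy3 and hybridised to a pig oligonucleotide array with 43603 different probes, so the comparison of the days lies within the same dye. The other dye of each of these arrays read a venous anastomosis sample. The normalization used both dyes of an array, so a jugular value also depends in part on the sample that shared its array. Intensities were normalized and are given as log2 values, so that a difference of 1 is a 2-fold difference. Levels of different probes were not compared with each other. The brightest probe stood for a gene symbol and every probe without a symbol stood for itself, and a feature entered the test if 4 or more of the 8 samples showed it well above background. This left 28434 features, 5564 of them with a symbol. Between 56.9% and 80.0% of probes were well above background in a sample, and no probe was saturated. At day 14 the share was 70.6% ± 10.6 (SD, n = 4) and at day 5 it was 66.1% ± 8.94 (SD, n = 4). The difference of 4.43 percentage points was smaller than the spread within a day (two-sided exact permutation test over 70 splits, p = 0.6; the smallest p that 4 against 4 samples allow is 0.0286).

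The deposited value table of the authors was set against the scanner files. Its columns for replicate 4 resembled the scanner values of replicate 3 of the same day more (correlation of centred values 0.723 at day 5 and 0.687 at day 14) than those of replicate 4 itself (0.518 and 0.456), while the other 6 columns matched their own sample best (0.692 to 0.815). The scanner files were therefore used throughout.

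The wall of a large vein holds an endothelium that lines the lumen, a thin media of contractile smooth muscle and a broad adventitia of collagen, fibroblasts, small vessels and nerves that merges with the surrounding fat. The contractile cells are known by smooth muscle actin and myosin heavy chain, the endothelium by PECAM1 and von Willebrand factor, and fat cells by adiponectin and perilipin. A control vein that is not joined to a graft serves in such a model as the reference for the wall, and how far it differs between sampling days sets how its values can be used.

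The array reads each RNA through a probe of 60 bases. The first 30 bases of the probes behind the features that separate the days most clearly are given below in lower case, 5′ to 3′, because 4 of them carry no gene symbol in the array's annotation and can be followed up only by sequence. No position in the genome is given for them here.
A_72_P424229: aggctgctgtttgattgtaagctgcggttt
A_72_P345448: ggacctgtcctcatgtttaagatgggaaag
A_72_P048376: ccttccttttttgttaaactttggtactca
A_72_P032011: gccagctaggttagatcttttgccccttct
TP23: gagccgtgacattggaatgtgacggttgag
C4BPA: tgcagctctcaatccaatgtagatcacttg

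The samples fell apart by replicate number more than by day. The first principal component, 42.7% of the variance, put replicates 3 and 4 of both days between 44.1 and 52.4 and replicates 1 and 2 between -97.8 and -21.9. Replicates 1 and 2 were processed under version 5.1 of the array protocol, and replicates 3 and 4 under version 5.2, and these sets shared no scan. The split between replicates 1-2 and 3-4 took 39.3% of the summed squares over 28395 features and the split between the days took 9.43%. Samples of the same day correlated with a median of 0.947 (12 pairs) and samples of different days with a median of 0.950 (16 pairs), across features. The lowest pairs were those with day 14 replicate 2, between 0.899 and 0.941, and the closest was replicate 3 of day 5 with replicate 3 of day 14 at 0.989. In replicates 1 and 2 each day was also scanned apart from the other, whereas replicate 3 of both days shared a scan and replicate 4 of both days shared a scan and a slide. The part of these steps in the differences below was not tested beyond the within-set values given with them.

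**Figure D1:**
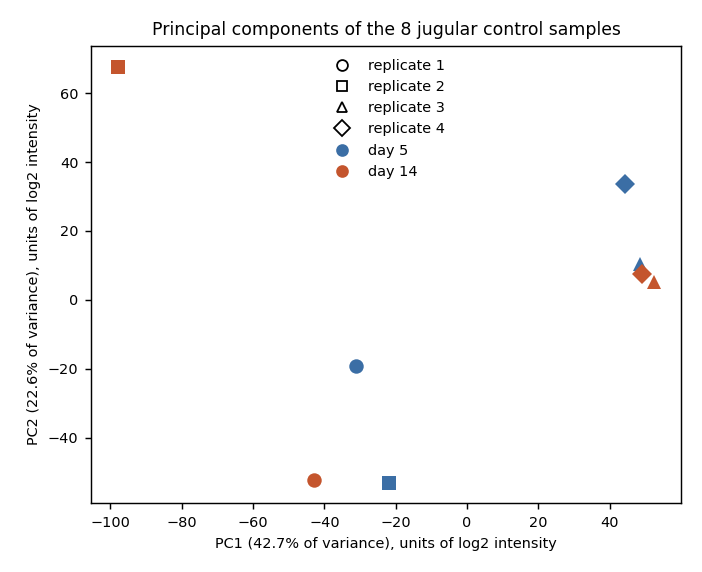
The first principal component (x axis, 42.7% of variance) against the second (y axis, 22.6%) for the 8 jugular controls over 28395 features, with colour for the day and shape for the replicate. Replicates 3 and 4 of both days lie together at the right, and day 14 replicate 2 stands alone at -97.8 and 67.7.

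RNAs of smooth muscle, endothelium and adventitia were read in the normal vein. Of the 43603 probes, 22553 (51.7%) were well above background in all 8 samples, 14405 in some and 6645 (15.2%) in none. All 16 contractile smooth muscle genes on the array were well above background in 8 of 8 samples, as were 10 of 13 endothelial genes, 9 of 12 adventitial fibroblast genes, 19 of 19 monocyte and macrophage genes and 17 of 17 genes of the respiratory chain. Of the probes with a symbol 74.8% were above background in all 8 samples. That share counts every probe of a gene, whereas the lists count only its brightest probe, so they are unlike measures. Of the markers of tissues near the vein, 19 of 23 adipocyte genes and 10 of 20 skeletal muscle genes were above background in all 8 samples, and of 4 thyroid genes 3 (TSHR, SLC26A4 and DIO1) were not above background in any.

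The defining markers had these values at day 5 (replicates 1 to 4) and then at day 14 (replicates 1 to 4). ACTA2, smooth muscle actin, read 18.51, 18.59, 18.38 and 18.56, then 18.05, 15.39, 18.83 and 18.14. MYH11, the smooth muscle myosin heavy chain, read 15.89, 16.85, 17.55 and 17.15, then 16.59, 13.60, 17.49 and 17.13. Outside day 14 replicate 2 the actin probe thus stayed within less than 1 log2 unit. PECAM1, an adhesion protein of endothelial junctions, read 15.30, 15.83, 14.99 and 15.06, then 15.80, 14.95, 15.38 and 14.03. VWF, which endothelial cells store and release for platelet binding, read 13.05, 13.31, 13.31 and 13.74, then 14.15, 12.001, 13.79 and 12.53. The endothelial markers of the 2 days overlapped in level, with a difference (day 14 minus day 5) of -0.26 ± 0.37 (SE) for PECAM1 and -0.24 ± 0.46 (SE) for VWF. The probe for PDGFRA, a receptor of fibroblasts, was not above background in any of the 8 samples and so gave no reading.

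The markers of cells that may enter a vein sample varied more. PTPRC (CD45), the surface phosphatase of white blood cells, read 12.71, 10.92, 10.93 and 11.84 at day 5 and 12.60, 12.91, 10.80 and 11.70 at day 14. ADIPOQ, the fat cell hormone adiponectin, read 10.86, 9.81, 12.44 and 13.55 at day 5 and 8.22, 17.75, 9.94 and 8.54 at day 14. The adiponectin values of day 14 replicate 2 and day 14 replicate 1 were thus the highest and the lowest of the 8. Its other 3 probes gave differences of 0.78, -0.69 and 0.37, with overlapping days. PLIN1, the coat protein of fat droplets, was above background in 1 of 4 samples at day 5 and 3 of 4 at day 14, with its highest value of 9.41 in day 14 replicate 2. ACTA1, skeletal muscle actin, lay between 7.41 and 9.84, and CDH19, a cadherin of Schwann cells, between 6.65 and 8.06, each with overlapping days.

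Gene groups differed in how steady they were within a day. The median standard deviation within a day was 0.38 log2 units over all 28434 features. It was 0.27 for the respiratory chain genes and 0.42 for the reference genes, but 1.61 for the adipocyte genes, 1.13 for the contractile genes, 1.05 for heat shock genes and 1.00 for inflammatory cytokines and chemokines. Without day 14 replicate 2 the adipocyte value was 0.61, the contractile value 0.47 and the value over all features 0.34. The heat shock genes (0.86) and the cytokines and chemokines (0.99) stayed wide without it. HSPA6, a chaperone made on acute stress, read 14.78, 12.17, 8.51 and 10.81 at day 5 and 11.64, 16.09, 8.38 and 14.19 at day 14. HSPH1, another chaperone, read 16.65, 14.97, 11.26 and 13.50, then 14.06, 16.57, 11.58 and 16.47. Replicate 3 was the lowest sample of its day for both chaperones. MT1A, a metallothionein that binds zinc and copper, showed a like width, from 12.40 to 16.85 at day 5 and from 12.35 to 18.10 at day 14.

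**Figure D2:**
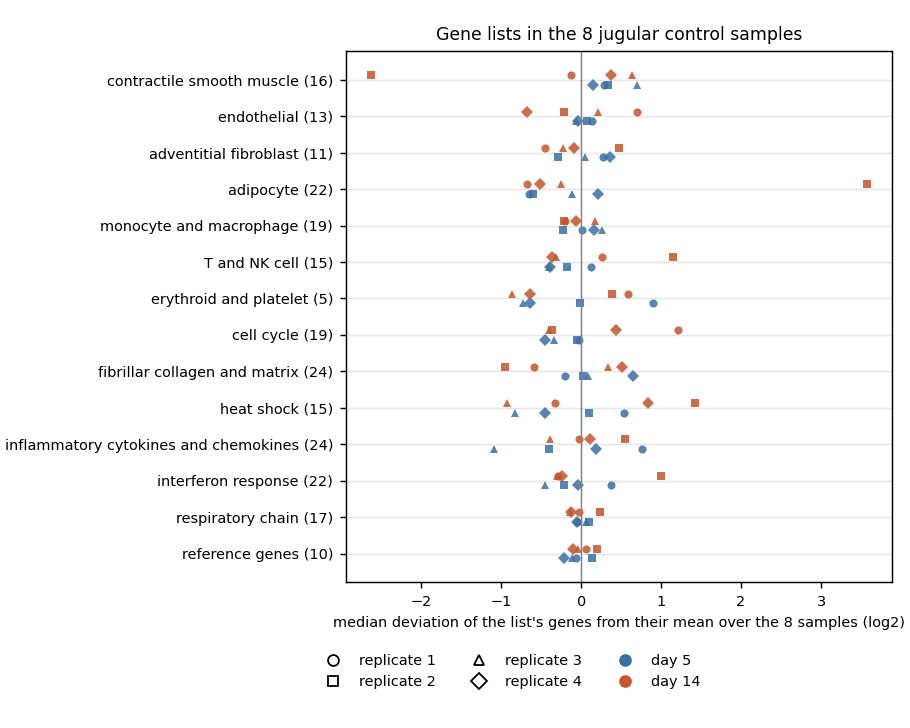
Median deviation of the tested genes of 14 lists (number of genes in brackets) from their mean over the 8 samples, in log2 units on the x axis, with colour for the day and shape for the replicate. Day 14 replicate 2 lies at 3.57 for adipocyte genes and -2.63 for contractile genes, while the other 7 samples lie between -0.68 and 0.69 on both lists.

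Day 14 replicate 2 stood apart through several groups of genes. Set against the mean of the other 3 samples of its day, 17.2% of features differed at least 2-fold, against 4.64% to 10.8% for the other 7 samples. It lay above each of the other day 14 samples in 20 of 22 adipocyte genes and below each of them in 15 of 16 contractile genes, where over all features it was above in 27.6% and below in 28.4%. FABP4, the fatty acid carrier of fat cells, read 18.39 against 10.45 to 12.36 in the other day 14 samples. FASN, which makes fatty acids, read 17.27 against 12.48 to 13.91, and CIDEC, which fuses lipid droplets, 16.05 against 8.11 to 12.65. On the muscle side, CALD1, a regulator of actomyosin, read 11.53 against 13.90 to 14.82, and PDLIM3, a protein of the actin cytoskeleton, 8.20 against 12.12 to 12.57.

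The same sample was also high in other groups. It lay above the other day 14 samples in 20 of 22 interferon response genes, 12 of 15 T and NK cell genes and 9 of 15 heat shock genes, and below none of them in these lists. IFIT3, which interferon induces, read 14.24 against 10.15 to 11.97, and CD3D, a subunit of the T cell receptor complex, 11.28 against 7.58 to 9.89. It lay below the other day 14 samples in 10 of 19 cell cycle genes. CCN2, a matrix-associated growth regulator, read 11.86 against 15.62 to 16.47. This sample alone could set a mean of 4, and it had been marked as rich in fat transcripts before the comparison. The main counts of the day comparison, its list medians and the chosen genes and probes are therefore given with and without it. The split over all 24 samples and the list values of the contrast with the downstream vein are given only with it.

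Between day 14 and day 5 no feature passed an adjusted p of 0.05 (0% of 28434; limma, Benjamini-Hochberg). The smallest adjusted p was 0.275 and the next was 1.00. At an unadjusted p under 0.05, 505 features (1.78%) were found, 180 higher (0.633%) and 325 lower (1.14%) at day 14. This fit holds no term for the protocol version that separates replicates 1-2 from 3-4. With it as a block, an alternative added after seeing the data, no feature passed and 1104 lay under an unadjusted p of 0.05. In a fit of replicates 1 and 2 alone no feature passed and 2193 lay under it, and in replicates 3 and 4 alone none passed and 824 did. Without day 14 replicate 2 again no feature passed (0%), and 683 (2.40%) lay under an unadjusted p of 0.05. All 4 samples of day 14 lay above all 4 of day 5 for 128 features (0.450%) and below them for 199 (0.700%), 327 (1.15%) in all. Leaving out day 14 replicate 2 these counts were 394 (1.39%) and 518 (1.82%), where 3 samples against 4 leave more room for such a split.

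The data also bound how large a difference a feature could have. The 95% confidence interval of the difference reached a median of 0.58 log2 units to either side, and for 19970 features it lay wholly within 2-fold in either direction, feature by feature, with no correction for their number and in the fit with no term for the protocol version. Without day 14 replicate 2 this was 20413 features. An estimated difference of at least 2-fold was found for 207 features (0.728%), 93 higher and 114 lower. For the remaining features the intervals were too wide to say that the vein kept its level between the days.

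Among genes with a symbol, TP23 had the widest difference of those whose days did not overlap. TP23 encodes a basic proline-rich protein, a kind of secreted protein best known from saliva. It read 11.33, 9.90, 10.83 and 7.54 at day 5 and 14.18, 14.05, 14.98 and 12.97 at day 14. Every day 14 sample was above every day 5 sample, and the difference was 4.14 ± 0.79 (SE), with an unadjusted p of 0.000557 and no adjusted p under 0.05 (limma). The difference was 4.14 without day 14 replicate 2, 3.50 in replicates 1 and 2 and 4.78 in replicates 3 and 4. At the anastomosis the mean of TP23 was 1.97 higher at day 14 and downstream it was 2.73 higher.

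CXCL16, a chemokine that is bound to the cell surface and also takes up oxidised lipoprotein, read 11.24, 10.79, 10.93 and 10.96 at day 5 and 11.83, 12.63, 12.20 and 11.73 at day 14. The difference was 1.12 ± 0.23 (SE), and 0.94 without day 14 replicate 2. A second probe for CXCL16 gave 0.38 with overlapping days, so the probes did not give the same size. LTA, lymphotoxin alpha, a cytokine of lymphocytes, read 6.90, 7.003, 6.77 and 6.87, then 7.53, 7.39, 7.63 and 7.36. Its values lay close together within each day and differed by 0.59 ± 0.15 (SE), with 0.62 at the anastomosis and 0.54 downstream, and by 0.62 in the jugular vein without day 14 replicate 2.

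A further 8 genes on the higher side were DECR2, SUCLG2, PAFAH2, YPEL1, ARRB2, CA6, MAP4K2 and KEL, with differences from 0.45 (KEL) to 0.86 (YPEL1) and unadjusted p from 0.00991 to 0.0350 (limma). None of them passed after adjustment. DECR2, a peroxisomal enzyme of fatty acid breakdown, differed by 0.76 ± 0.23 (SE), SUCLG2, a subunit of succinate-CoA ligase in the citric acid cycle, by 0.64 ± 0.21 (SE). For SUCLG2 the difference was 1.00 in replicates 1 and 2 and 0.27 in replicates 3 and 4. MAP4K2, a protein kinase, likewise had 1.32 and 0.27, ARRB2, an adaptor of G protein-coupled receptors, 1.04 and 0.16, DECR2 1.18 and 0.35, and PAFAH2, which breaks down platelet-activating factor, 0.73 and 0.29. These 5 differences were thus larger in the replicates whose days were scanned apart. A second probe for ARRB2 gave 0.00 and a second probe for SUCLG2 0.43, both with overlapping days, and so did the 2 other probes for YPEL1, with 0.21 and 0.13. Leaving out day 14 replicate 2, the 8 differences lay between 0.34 (KEL) and 1.02 (YPEL1), with 0.79 for DECR2 and 0.52 for SUCLG2. CA6 and KEL were above background in 1 of 4 samples at day 5, and in 3 of 4 and 4 of 4 at day 14, so that their differences are set against a day 5 level that was mostly not above background.

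On the lower side, C4BPA had the smallest p of any gene with a symbol. It encodes the alpha chain of C4b-binding protein, an inhibitor of complement. It read 16.57, 16.92, 16.46 and 16.37 at day 5 and 15.25, 14.81, 15.35 and 15.66 at day 14. All day 14 samples lay below all day 5 samples, with a difference of -1.31 ± 0.22 (SE), an unadjusted p of 0.000232 (limma) and no pass after adjustment. It was -1.16 without day 14 replicate 2, -1.72 in replicates 1 and 2 and -0.91 in replicates 3 and 4. A second probe for C4BPA gave -0.72 with overlapping days. At the anastomosis the mean of the same probe was 1.60 higher at day 14.

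Several secreted proteins of the vein wall lay lower at day 14 without overlap and without passing the test. CST3, the protease inhibitor cystatin C, read 17.66, 17.36, 17.09 and 17.07 at day 5 and 16.34, 15.63, 16.71 and 16.64 at day 14, a difference of -0.97 ± 0.27 (SE). It was -0.73 without day 14 replicate 2, -1.53 in replicates 1 and 2 and -0.40 in replicates 3 and 4, and its other probe gave -0.76 with overlapping days. In the Cy3 channel of the downstream arrays, described at the end, the days lay closer and overlapped for CST3. Its values there were 16.65 to 17.13 at day 5 and 16.57 to 16.66 at day 14. LGALS3, the lectin galectin-3, read 14.61, 14.68, 14.17 and 14.41, then 13.90, 13.91, 13.70 and 13.33. Its difference was -0.76 ± 0.20 (SE), and -0.82 without day 14 replicate 2, and 2 further probes for it gave -0.72 and -0.78, each without overlap between the days. SFRP4, a secreted antagonist of Wnt signals, differed by -1.10 ± 0.31 (SE), from 15.28 to 16.09 at day 5 against 13.82 to 15.12 at day 14, and by -0.86 without day 14 replicate 2.

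MFAP5 and COL1A1 also lay lower. In their lists, 1 of 11 adventitial fibroblast genes lay lower and 1 (DPP4, 0.59) higher without overlap. Of the fibrillar collagen and matrix genes 1 of 24 lay lower without overlap. Over all features 0.700% lay lower and 0.450% higher in this way. The adventitial list had a median difference of -0.08, with 4 of 11 above 0, and -0.33 without day 14 replicate 2. The fibrillar collagen and matrix list had -0.38, with 3 of 24 above 0, and -0.15 without that sample. MFAP5, a glycoprotein of elastic microfibrils, read 17.27, 16.80, 17.27 and 17.38 at day 5 and 15.40, 16.09, 16.71 and 16.70 at day 14. Its difference was -0.95 ± 0.31 (SE), and -0.91 without day 14 replicate 2, and its other probe gave -0.84 without overlap. COL1A1, the main chain of collagen I, read 12.75, 12.66, 12.38 and 12.86, then 10.81, 12.20, 11.93 and 11.80, a difference of -0.98 ± 0.30 (SE) that was -1.15 without day 14 replicate 2. COL1A2, its partner chain, differed by -0.25 ± 0.39 (SE) with overlapping days, so the chains of the same collagen gave unlike values. PTGFR, the receptor for prostaglandin F2 alpha, read 10.28, 10.08, 10.07 and 10.34, then 7.5999, 9.68, 9.14 and 8.86, a difference of -1.37 ± 0.39 (SE) that was -1.66 without day 14 replicate 2. Its other probe, above background in 5 of 8 samples, gave -0.20 with overlapping days.

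LRRTM4, a leucine-rich repeat protein known from synapses, differed by -0.81 ± 0.17 (SE), ALG5, an enzyme of N-glycosylation, by -0.78 ± 0.19 (SE), and FGL2, a fibrinogen-like protein, by -0.52 ± 0.17 (SE). GKN2, known from the stomach lining, differed by -1.30 ± 0.33 (SE) and was above background in 4 of 4 samples at day 5 and 3 of 4 at day 14. ZC2HC1A had -1.14 ± 0.36 (SE), with -1.99 in replicates 1 and 2 and -0.28 in replicates 3 and 4. Leaving out day 14 replicate 2, the differences were -0.87 for LRRTM4, -0.83 for ALG5, -0.61 for FGL2, -1.07 for GKN2 and -0.83 for ZC2HC1A.

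**Figure D3:**
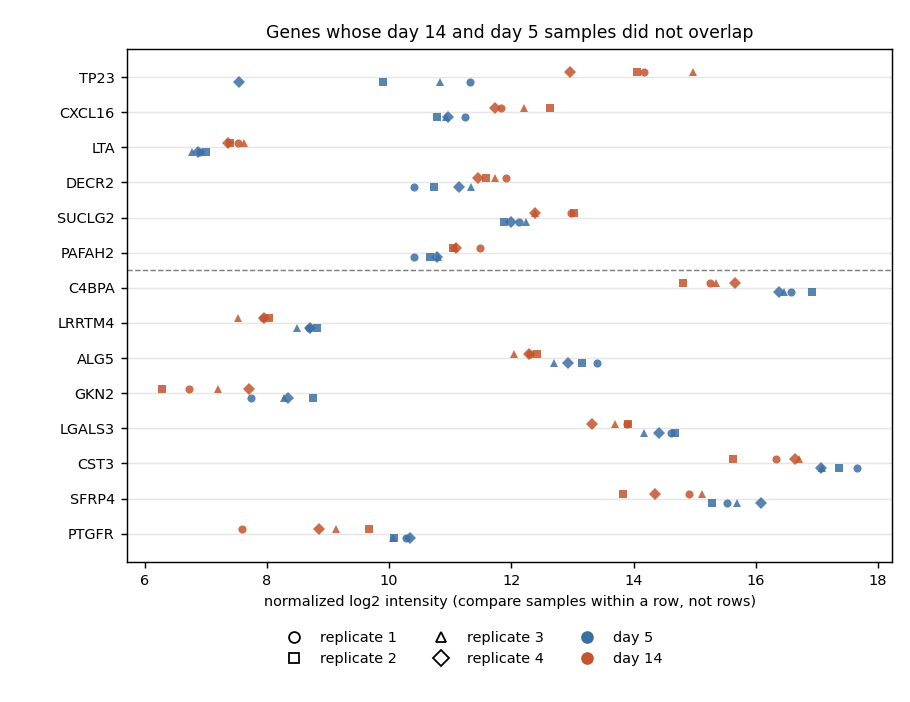
Normalized log2 intensity (x axis) of 6 genes with higher values at day 14 (above the dashed line) and 8 with lower values (below it) in each jugular control, with colour for the day and shape for the replicate. The days do not overlap in any row; TP23 spans 7.54 to 11.33 at day 5 and 12.97 to 14.98 at day 14, and no gene passed the test after adjustment.

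The unnamed probe A_72_P424229 had the smallest p of all features. It read 6.37, 6.67, 6.36 and 6.19 at day 5, where it was above background in 1 of 4 samples, and 12.49, 11.48, 9.76 and 10.48 at day 14, where it was above background in 4 of 4. The difference was 4.66 ± 0.51 (SE), adjusted p = 0.275 (limma), and its size is uncertain because the day 5 level lay near background. It was 4.52 without day 14 replicate 2, 5.47 in replicates 1 and 2 and 3.85 in replicates 3 and 4. The same split held at the other vein sites: over all 24 samples, the 12 of day 14 lay between 9.76 and 12.84 and the 12 of day 5 between 6.04 and 6.74. At all 3 sites, replicate 1 was the highest and replicate 3 the lowest of the day 14 samples. Samples of the same number and day may share an animal, so the sites are not independent of each other here.

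Such a split across all 24 samples was found for 8 of the 28434 features, 1 higher (0.00352%) and 7 lower (0.0246%) at day 14. A_72_P032011 read 11.15, 11.29, 10.65 and 10.75 in the jugular vein at day 5 and 8.47, 8.38, 9.68 and 9.68 at day 14, a difference of -1.91 ± 0.35 (SE), with -1.63 at the anastomosis and -1.70 downstream. A_72_P048376 read 9.20, 9.43, 9.70 and 8.99, then 6.82, 7.23, 7.78 and 8.11, a difference of -1.84 ± 0.30 (SE), with -1.56 and -1.58 at the other sites. A_72_P345448 differed by -1.16 ± 0.17 (SE), with -1.02 and -1.06. For these 4 probes the jugular vein thus gave nearly the size seen at the grafted sites. Leaving out day 14 replicate 2, the jugular differences were -1.68 for A_72_P032011, -1.76 for A_72_P048376 and -1.12 for A_72_P345448. ALG5 was the only feature with a symbol in this group, with -0.78 in the jugular vein, -0.97 at the anastomosis and -0.64 downstream. Its second probe, above background in 7 of 8 jugular samples, gave -0.07 with overlapping days.

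**Figure D4:**
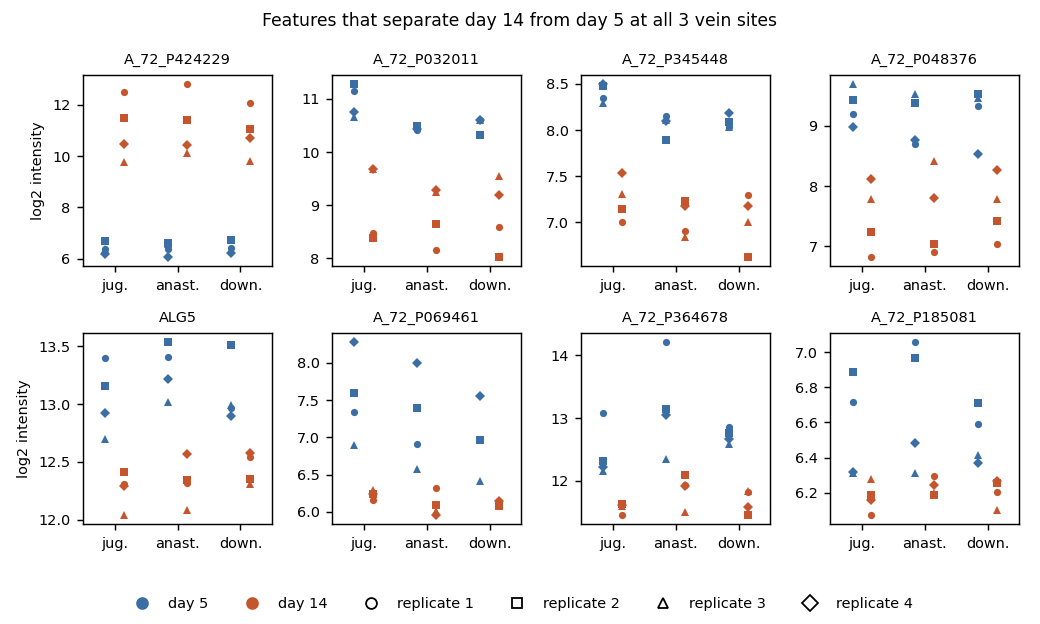
Normalized log2 intensity (y axis) of the 8 features whose 12 day 14 samples all lie on the same side of the 12 day 5 samples, by vein site (x axis: jugular control, anastomosis, downstream), with colour for the day and shape for the replicate. In A_72_P424229 the day 14 samples lie between 9.76 and 12.84 and the day 5 samples between 6.04 and 6.74.

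The gene lists were set against the median difference of all features, which was -0.02 with all 8 samples and -0.01 without day 14 replicate 2. No member of any list passed an adjusted p of 0.05. Among lists with at least 8 tested genes, the highest median was that of the 22 adipocyte genes, 0.65 with 17 of 22 above 0, and it was -0.09 with 7 of 22 above 0 without day 14 replicate 2. The contractile genes gave -0.71 with 1 of 16 above 0, and 0.02 with 9 of 16 above 0 without that sample. Both medians thus rested on that sample. By its median deviation per sample, the contractile list lay between 0.14 and 0.69 at day 5 and between -0.13 and 0.64 in the other 3 samples of day 14.

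Without day 14 replicate 2 some fat cell genes lay lower at day 14. That sample had been marked as rich in fat transcripts before this comparison. Leaving it out by itself lowers the day 14 level of such genes, so the values here are no test of a fall. FABP4 read 14.21, 13.61, 14.09 and 14.59 at day 5 against 10.45, 12.36 and 12.28 in the 3 remaining samples, with no overlap. Its difference was -2.43 (limma, not passing after adjustment), and -0.76 with all 8 samples. CD36, a fatty acid transporter that endothelium, macrophages and fat cells share, differed by -1.60 without that sample and by -0.21 with it. ADIPOQ differed by -2.77 and LPL, a lipase that frees fatty acids from lipoproteins, by -1.70 without that sample, each with overlapping days. Not all markers of the list were this low: PPARG, the master regulator of fat cells, differed by -0.64, CIDEC by 0.04 and PNPLA2, a lipase of fat droplets, by 0.19.

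The 19 tested cell cycle genes had a median difference of 0.37 with 18 of 19 above 0, and of 0.65 with 18 of 19 above 0 without day 14 replicate 2. By its median deviation per sample, the list lay at 1.21 and 0.44 in day 14 replicates 1 and 4. In day 14 replicates 2 and 3 it lay at -0.37 and -0.40, within the day 5 range of -0.45 to -0.02. In 1 of the 19 the unadjusted p was under 0.05, against 0.633% of all features. That gene was UBE2C, a ubiquitin-conjugating enzyme needed to leave mitosis, which read 9.85, 9.75, 9.70 and 9.78 at day 5 and 12.22, 9.61, 10.44 and 11.46 at day 14. Day 14 replicates 1 and 4 were the high samples and replicate 2 was at the level of day 5. TOP2A, which untangles DNA, read 10.23, 10.12, 10.25 and 10.14, then 11.98, 9.74, 10.51 and 11.74. CCNB1, the mitotic cyclin B1, read 8.54, 8.64, 8.45 and 8.65, then 9.73, 8.19, 9.07 and 10.62. Without day 14 replicate 2, the lowest sample of its day for each, the differences were 1.60, 1.23 and 1.24. The days then did not overlap for any of these 3, where 1.39% of all features lay higher in this way. They still overlapped for other genes of the list, among them CDK1, CCNA2, BUB1, AURKA, MELK and DLGAP5. PCNA, the sliding clamp of DNA replication, differed by 0.01 ± 0.21 (SE), with overlapping days. MKI67, the Ki-67 antigen of dividing cells, named here from the description of its probe, did not share the pattern. It read 10.17, 9.11, 7.90 and 9.17 at day 5 and 9.10, 11.22, 8.65 and 8.73 at day 14, with its highest value in day 14 replicate 2. Its difference was 0.34 ± 0.64 (SE) with all samples and -0.26 without that sample.

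**Figure D5:**
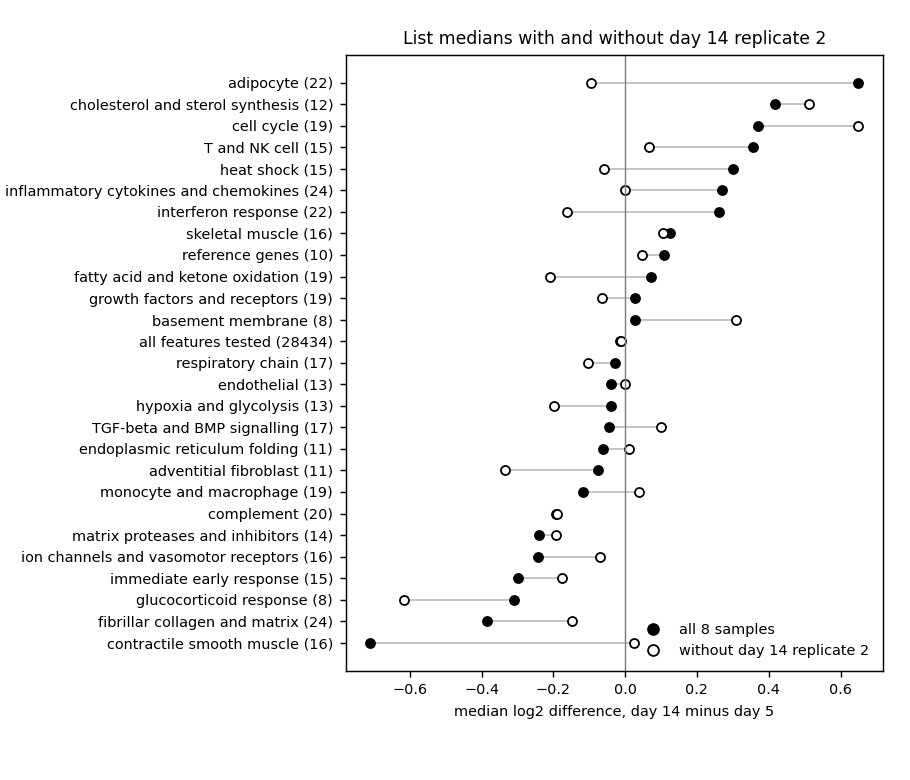
Median log2 difference, day 14 minus day 5 (x axis), of each list with at least 8 tested genes (number in brackets) and of all 28434 features, with all 8 samples (filled) and without day 14 replicate 2 (open). The adipocyte median is 0.65 filled and -0.09 open, the contractile median -0.71 and 0.02, and the cell cycle median 0.37 and 0.65.

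Besides the contractile genes, the lists of the vessel wall gave these medians. The 13 endothelial genes had -0.04 (0.00 without day 14 replicate 2), the 8 basement membrane genes 0.03 (0.31) and the 17 genes of TGF-beta and BMP signalling -0.04 (0.10). The 24 fibrillar collagen and matrix genes had -0.38 with 3 of 24 above 0, and -0.15 with 9 of 24 above 0. That list had -0.93 in replicates 1 and 2 and -0.04 in replicates 3 and 4. The 12 genes of cholesterol and sterol synthesis had 0.42 with 10 of 12 above 0, and 0.51 with 10 of 12 above 0 without that sample. SQLE, an enzyme of that pathway, differed by 0.75 ± 0.49 (SE), with overlapping days.

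The blood cell lists depended on the same sample. The 15 T and NK cell genes had 0.36 and 0.07 without it, the 22 interferon response genes 0.26 and -0.16, and the 24 inflammatory cytokines and chemokines 0.27 and 0.00. The 19 monocyte and macrophage genes had -0.12 and 0.04. MRC1, a mannose receptor of resident macrophages, read 12.93, 13.08, 12.96 and 12.77 at day 5 and 12.29, 11.61, 12.61 and 12.66 at day 14, a difference of -0.64 ± 0.25 (SE) that did not pass and was -0.41 without day 14 replicate 2. The 8 genes of the glucocorticoid response had -0.31, and -0.62 without that sample. PDK4, a brake on glucose oxidation, differed by -1.45 ± 0.44 (SE), with -1.44 in replicates 1 and 2 and -1.46 in replicates 3 and 4. Its days overlapped and it did not pass after adjustment. The 10 reference genes had 0.11 and 0.05, with 8 of 10 above 0. The widest of them was RPL4, a ribosomal protein, with 0.34 ± 0.23 (SE).

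The day difference of the jugular vein was then set against that of the downstream vein, which has samples of its own. For the difference between the differences, no feature passed an adjusted p of 0.05 (0% of 28434; limma with replicate within day as a block), and the smallest adjusted p was 0.626. At an unadjusted p under 0.05 there were 2257 features (7.94%), 820 with a higher value in the jugular vein (2.88%) and 1437 with a lower value (5.05%). When jugular day 14 replicate 2 was left out, no feature passed and 2275 lay under an unadjusted p of 0.05. All 24 samples enter this fit, and jugular and downstream samples differ in dye, which the difference of differences removes only as far as the dye acts alike on both days.

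The cell cycle genes were the list with the widest contrast of this kind. In the jugular vein 18 of 19 differed upward with a median of 0.37, whereas 0 of 19 did so at the anastomosis, with a median of -1.52, and 0 of 19 downstream, with a median of -1.29. The contrast with the downstream vein had a median of 1.83 over the list and -0.02 over all features, and 15 of the 19 had an unadjusted p under 0.05 on the higher side (limma), against 2.88% of all features. None passed after adjustment, so the count describes the list and is no call. For UBE2C the contrast was 2.65 ± 0.72 (SE) and for CENPF, a kinetochore protein, 2.41 ± 0.66 (SE), each short of the threshold after adjustment (limma). The adventitial fibroblast genes lay the other way, with -0.08 in the jugular vein, 1.08 at the anastomosis and 1.06 downstream. The monocyte and macrophage genes had -0.12 in the jugular vein, 0.36 at the anastomosis and -0.48 downstream.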

How the data were processed

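Total RNA of 24 pig vein samples was measured on 16 two-colour arrays. Per the file headers, the authors extracted spot intensities with Agilent Feature Extraction 10.5.1.1. The log2 values of the authors' deposited value table carry no stated method in the sources used here. Their columns have near-equal medians, which points to centring of arrays, and they served only as an alternative.

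From the scanner intensities, background was corrected with normexp (offset 50), dyes were normalized by loess and arrays by Aquantile in limma 3.58.1 (R 4.3.3). Control spots and outliers did not enter, and a probe printed in several spots took their mean. Of 43603 probes, 9200 (21.1%) could be given a symbol through RefSeq accessions, gene IDs or names, 6233 symbols in all. The day comparison used lmFit and eBayes on 8 samples, Benjamini-Hochberg adjusted at 0.05. The contrast with the downstream vein used 24 samples with replicate within day as a block. Detection was tested by exact permutation. The fit was tested on simulated data. The number of arrays limits the precision.

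Named genes were up to 12 on each side with the largest moderated t and days that did not overlap, up to 4 unnamed probes, defining markers, and list members with the largest and smallest difference. Some genes that this rule names are not reported here. Other list members named were chosen after their values were seen. The members and lists were chosen with earlier results of these data known. Alternatives covered signal, background, normalization, filter, probe rule, blocks, weights, left-out samples and the value table.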

Additional observations from a re-analysis of the deposited data

Results flagged for a closer look

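In groups of 4 samples, a sample whose gap to the nearest other took more of the group's range than Dixon's 95% critical value allows was taken as far from the others, which chance alone gives in about 1 in 20 groups. Lists and single genes of both days were looked at, many groups in all, so chance alone can give several such cases. Day 14 replicate 2 was so placed for the adipocyte list, with a median deviation of 3.574 against -0.6751 to -0.2476 in the other 3 samples of its day, for the interferon response list, with 1.002 against -0.3024 to -0.2452, and for PLIN1, with 9.414 against 5.914 to 6.281. That sample had been marked beforehand as rich in fat transcripts, so its place for the adipocyte list and PLIN1 is no independent flag. Day 14 replicate 3 was far below the others for the lymphatic endothelial list, -0.28 against 0.08185 to 0.1265, a list of 3 genes. Among single genes, PLIN1 read 6.661 in day 5 replicate 4 against 6.049 to 6.148 and PAFAH2 read 11.49 in day 14 replicate 1 against 11.05 to 11.09.

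The Cy3 channel of the 8 downstream arrays, to which the labels give no sample, held a signal that no comparison used. Its centred values correlated with the jugular control of the same number and day at 0.92 or above, and with any other jugular control at 0.657 or below.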

How the results depend on the processing

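The count of 0 features between the days stayed at 0 in 27 of 30 alternatives, with left-out samples giving 0 to 0 (282 to 944 features at an unadjusted p under 0.05). With all 24 samples in the fit 2 features passed (1 higher), A_72_P424229 and A_72_P345448. The authors' value table gave 17 (8 higher), and 2 with its columns of replicates 3 and 4 of a day averaged, an alternative added after seeing the data. The cause was not tested, but those columns correlated at 0.995 (day 5) and 0.991 (day 14), against 0.980 and 0.972 in the scanner values. The contrast with the downstream vein gave 0 in every alternative run. With the replicate number as a block 0 features passed (978 at an unadjusted p under 0.05), and the contrast gave 0 with no block (602). Deviations of same-numbered samples correlated at 0.291, 0.075, 0.625 and 0.443, so the numbers were not taken to pair the samples, and 2 of 4 day 14 samples correlated best with their own number. Protocol version as a block, also added after seeing the data, gave 0 (1104). The differences of the genes and probes chosen by moderated t kept their sign in every alternative run. Among the other genes named, MYH11, PDLIM3, VWF, PLIN1, PPARG, FASN, CD3D, MKI67, HSPA6, HSPH1 and IFIT3 changed sign without day 14 replicate 2. Slide as a random block could not be fitted.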

Other observations

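The Cy3 channel of the downstream arrays, which the labels tie to no sample, was read with the same processing. By the number and day of the array it sits on, its TP23 values were 11.26, 9.97, 10.69 and 7.66 at day 5 and 14.17, 14.12, 15.01 and 13.24 at day 14. C4BPA read 16.05, 16.55, 16.28 and 16.23, then 15.31, 15.02, 15.57 and 15.27. A_72_P424229 read 6.27, 6.76, 6.41 and 6.27, then 12.51, 11.37, 9.75 and 10.43. The days overlapped in this channel for some other genes that had not overlapped in the jugular controls. For DECR2 the lowest day 14 value was 11.37 and the highest day 5 value 11.38, and for YPEL1 they were 8.12 and 8.19. ARRB2 had 12.55 and 12.65, and CA6 6.35 and 6.44. CST3 and SFRP4, lower at day 14 in the jugular controls, also overlapped here. For CST3 the values were 16.65, 16.91, 17.13 and 16.90 at day 5 and 16.66, 16.62, 16.63 and 16.57 at day 14. The median absolute difference from the jugular control of the same number and day lay between 0.0504 and 0.108 log2 units. Some bright genes differed more. ACTA2 read 17.44 here against 18.51 in day 5 replicate 1, and 16.53 against 15.39 in day 14 replicate 2. ADIPOQ read 16.68 against 17.75 in day 14 replicate 2.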
